A study of Mus musculus with 6 samples.

Results

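The miR-297, miR-466, miR-467 and miR-669 miRNAs are a group of closely related mouse miRNAs, and they were scarce in these serum exosomes. Of the 1982 rows of the count table, 80 had a mouse name that begins with miR-297, miR-466, miR-467 or miR-669 followed by a letter or a hyphen. They were 6 miR-297, 31 miR-466, 13 miR-467 and 30 miR-669 rows. At least 1 read was counted on 47 of the 80 rows, and 33 rows stood at 0 in every mouse. Rows with the same count in all 6 mice were taken once under the name listed first, which left 27 distinct members, 2 of miR-297, 13 of miR-466, 4 of miR-467 and 8 of miR-669.

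Exosomes, the small vesicles that carry RNA between cells, were isolated from serum of 6 male mice of the C57BL/6 strain, 3 months old. The 3 Acu/LFES mice (mice 4, 5 and 6) received acupuncture with low frequency electrical stimulation of the hindlimb for 30 min. The 3 sham mice (mice 1, 2 and 3) were needled in the same region without any current. Each mouse gave its own small RNA library, and reads were counted on each mature miRNA. Neither group carried a transgene or a deletion, and serum exosomes come from many tissues at once, so that a change in their source and a change in their content cannot be told apart.

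miRNAs are short RNAs cut from a hairpin, and each binds mRNAs mainly through bases 2 to 8 of its 5′ end, which are called the seed. The hairpin has a 5p and a 3p arm, and either arm can give a mature miRNA. Most hairpins of this group lie side by side in an intron of Sfmbt2, a Polycomb group gene that is imprinted in rodents and expressed from the paternal allele in the placenta. The cluster is a rodent feature, and it is best known from the placenta and from embryonic stem cells. Many of its members contain runs of alternating T and G, or of alternating C and A on the other arm, so that reads of different members can look alike.

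Annotation of the GRCm38 genome by GENCODE M21 has 81 hairpins with these names. Of these, 71 lay in introns of Sfmbt2, which is on the plus strand of chromosome 2 from 10370510 to 10595253. They filled a stretch of 51.6 kb, from 10466663 to 10518279, which began 96.2 kb after the start of the gene. The other 10 hairpins were elsewhere in the genome. The hairpin of miR-466i, the member with the most reads, was among these 10. Mir466i lies on the plus strand of chromosome 13 from 17747473 to 17747593, in an intron of Cdk13, which is on the other strand.

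The stretches below show parts of the hairpins of 6 of the 7 members with 20 or more reads. The stretches of miR-669c and miR-669a, and those of miR-467c and miR-467e, are nearly alike, while the stretches of miR-466i and miR-669h differ from them. They are 30 bases each, read 5′ to 3′ from GRCm38 around the longest run of alternating T and G, which is in capitals. The mature sequences of these members were not among the RefSeq sequences used here, so the exact bases that were counted are not marked. The Mir669h stretch is the first 30 bases of a hairpin of 125 bases, and its counted member is named for the other arm. The difference of this stretch from the others therefore says nothing about the bases that were counted.
Mir466i, chr13:17747520-17747549, plus strand: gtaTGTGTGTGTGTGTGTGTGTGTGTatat
Mir669c, chr2:10509313-10509342, plus strand: gtgtgtatagtTGTGTGTGgatgtgtgtat
Mir669a-1, chr2:10476864-10476893, plus strand: gtgtgtatagtTGTGTGTGcatgttcatgt
Mir467c, chr2:10473948-10473977, plus strand: gtgcatgtataTGTGTGTatattttatgca
Mir467e, chr2:10505739-10505768, plus strand: gagcatgtataTGTGTGTatattttatgca
Mir669h, chr2:10518155-10518184, plus strand: TGTGatgcccaccaaaaatatgcatgggtg

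The alternating run of T and G was 23 bases long in Mir466i, 4 bases long in Mir669h, and at most 10 bases long in any hairpin inside Sfmbt2. Mir669h also had a run of alternating C and A of 15 bases, which lies outside the stretch shown. A run of at least 20 bases was present in 3 hairpins of the group and in 58 hairpins of other miRNAs, so that 61 of the 2201 annotated mouse hairpins, or 2.77%, had such a run. The letters TG repeated 6 times in a row, searched on the strand of the hairpin, were found in 6 of the 81 hairpins (7.41%) and in 94 of all 2201 (4.27%). The letters CA repeated 6 times were found in 7 of the 81 (8.64%) and in 106 of all 2201 (4.82%). The median of the longest alternating T and G run was 8 bases in the group against 4 over all hairpins, and that of C and A was 9 against 3. Between members, Mir669c and Mir669a-1 had an unbroken stretch of 30 bases in common, and Mir467c and Mir467e of 48 bases, whereas the longest stretch that Mir466i shared with Mir669c was 13 bases.

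RefSeq, on GRCm38.p6, gave the mature sequence of 8 of the 80 member names. All 8 have their hairpins outside Sfmbt2, so they do not stand for the members of the Sfmbt2 cluster. The 6 of these with reads had 17, 6, 6, 3, 2 and 2 counts, in the order below. The last 2, miR-467f and miR-466i-3p, were listed with identical counts and taken once among the distinct members. The 6 sequences follow, with the seed in capitals, to show how different their seeds are.
miR-669n: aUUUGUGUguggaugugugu
miR-466k: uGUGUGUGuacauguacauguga
miR-466j: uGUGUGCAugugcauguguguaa
miR-466q: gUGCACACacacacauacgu
miR-467f: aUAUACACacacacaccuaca
miR-466i-3p: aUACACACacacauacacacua
No seed was shared between these 6 sequences, although each is made mostly of G and U or of C and A. The 20 bases of miR-669n, whose hairpin lies on chromosome 3 in an intron of Slc30a7 on the other strand, had a stretch of 18 bases in common with the hairpin of miR-669c on chromosome 2. Reads of that stretch could be counted on either row, and how the authors' counting shared such reads is not given in the sources used here.

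The libraries held between 391708 and 658833 counts in the sham libraries and between 517421 and 1504137 in the Acu/LFES libraries. miR-486a-5p and miR-486b-5p, red cell miRNAs listed with identical counts, took from 61.7% to 74.0% of the sham libraries and from 29.2% to 73.5% of the Acu/LFES libraries, with the low value in mouse 6. A miRNA with 3 counts, used as the detection limit, stood at 1.99 to 7.66 CPM (counts scaled to a common library total), which covers counting error only. The listed red cell miRNAs, which include miR-486a-5p but not the identical miR-486b-5p, had reads on 5 of 5. They summed to between 33.4% and 39.1% of the counts in the sham libraries and between 19.97% and 40.4% in the Acu/LFES libraries. Most of this sum was miR-486a-5p in every library. Another of the 5, miR-144-3p, had 0 counts in each sham library and 3, 0 and 1 in the Acu/LFES libraries. The listed miRNAs of liver (3 of 3 with reads) were at 0.669% to 1.83% and 0.451% to 3.80%, those of striated muscle (4 of 5) at 0.657% to 1.21% and 0.569% to 2.64%, and those of white cells and platelets (3 of 3) at 0.141% to 0.410% and 0.200% to 0.617%. Of 7 markers of embryonic stem cells, where this group of miRNAs is known to be expressed, 5 were at 0 in every mouse, and the other 2 summed to 0, 7 and 1 counts in the sham libraries and to 2, 0 and 0 in the Acu/LFES libraries. The whole embryonic stem cell cluster of miR-290 to miR-295, with reads on 6 of 18 rows, had 2, 22 and 1 counts in the sham libraries and 5, 0 and 0 in the Acu/LFES libraries.

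As a whole, the group took less than a thousandth of each library and did not separate sham from Acu/LFES mice. The 27 distinct members summed to 258, 294 and 81 counts in sham mice 1, 2 and 3 and to 919, 194 and 503 in Acu/LFES mice 4, 5 and 6. These sums were 0.0413%, 0.0446% and 0.0207% of the library in the sham libraries and 0.0611%, 0.0307% and 0.0972% in the Acu/LFES libraries. Acu/LFES mice 4 and 6 were above all sham mice, while Acu/LFES mouse 5 was below sham mice 1 and 2. The share was 0.0355% ± 0.0130 in sham libraries and 0.0630% ± 0.0333 in Acu/LFES libraries (SD, n = 3 each), and the two-sided exact permutation test gave p = 0.3, where 3 mice against 3 cannot go below 0.1. The difference of 0.0275 percentage points fell to 0.0104 without Acu/LFES mouse 6 and to 0.00767 without miR-466i-5p. The highest share was in mouse 6, the library in which miR-486a-5p and miR-486b-5p took the smallest part. With these miRNAs left out of the totals, the shares were 0.108%, 0.171% and 0.0717% in the sham libraries and 0.160%, 0.116% and 0.137% in the Acu/LFES libraries. The highest of them was then in sham mouse 2, and the exact permutation test gave p = 0.6.

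**Figure D1:**
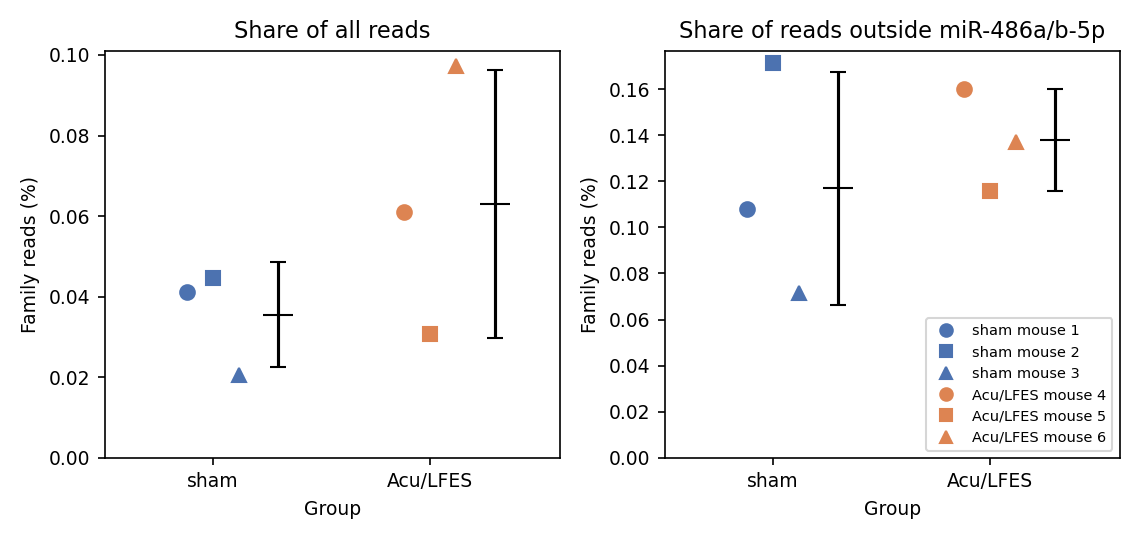
Share of the deposited reads on the 27 distinct members, in percent of all reads (left) and of the reads outside miR-486a/b-5p (right), with 1 point for each mouse and the mean ± SD of each group (black, n = 3). Sham and Acu/LFES mice overlapped in both panels, and mouse 6, the highest on the left at 0.0972%, was at 0.137% on the right, below sham mouse 2 at 0.171%.

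Few members carried these reads. miR-466 had 1579 of the 2249 counts (70.2%), miR-669 had 605 (26.9%), miR-467 had 59 (2.62%) and miR-297 had 6 (0.267%). miR-466i-5p alone had 65.5% of the counts, and with miR-669c-5p and miR-669a-5p 87.9%. Members named for the 5p arm had 92.7% of the counts (12 distinct members), members named for the 3p arm 4.05% (9 distinct members), and members named for no arm 3.25% (6 distinct members). Below these few, 12 distinct members had fewer than 10 counts over all mice and 8 had 10 to 19. Only miR-466i-5p, miR-669c-5p and miR-466f had reads in all 6 mice, and 10 of the 27 distinct members had reads in 1 mouse alone, which is 37.0% against 11.4% over all distinct rows of the table. The median distinct member had 13 counts in all, and the median distinct row of the table had 40. Rows of the whole table with identical counts were taken once whatever their name, so unrelated rows with few reads merged there. Members were merged only with each other, and these values are therefore not like for like.

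**Figure D2:**
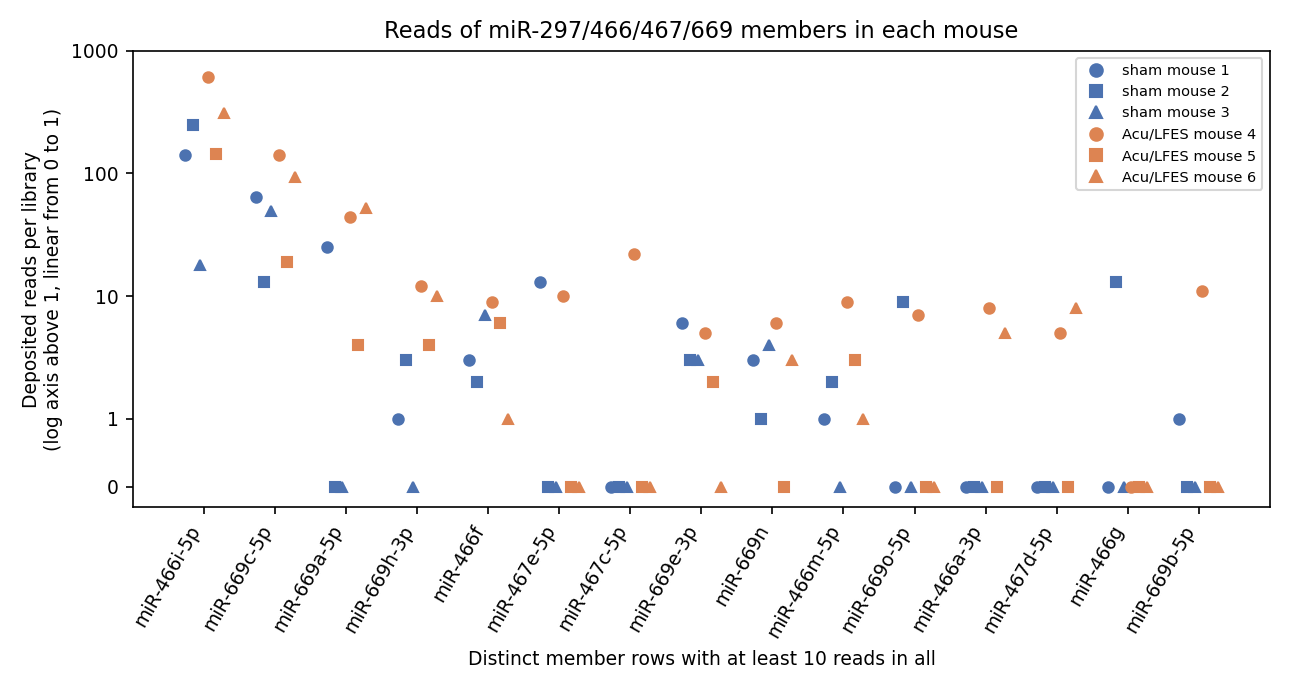
Deposited reads per library (log axis above 1, linear from 0 to 1) for the 15 distinct members with at least 10 reads in all, with 1 point for each mouse, sham in blue and Acu/LFES in orange. miR-466i-5p had between 18 and 612 reads and miR-669c-5p between 13 and 141, while 12 of the other 13 members were at 0 in at least 1 mouse.

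miR-466i-5p, named for the 5p arm of the hairpin on chromosome 13, had 140, 246 and 18 counts in the sham libraries and 612, 144 and 312 in the Acu/LFES libraries. Whether these reads came from that hairpin or from other places with alternating T and G was not tested. After scaling by edgeR's TMM factors, which set the libraries to a common level by the miRNAs that change least, this was 202, 574 and 59.5 CPM in the sham libraries and 366, 299.4 and 285 CPM in the Acu/LFES libraries. The Acu/LFES mice lay inside the range of the sham mice, which held both the highest and the lowest value. Its log2 fold change of Acu/LFES over sham was 0.18 with a standard error of 0.63 (adjusted p = 0.963, edgeR's quasi-likelihood test), with a 95% interval from -1.22 to 1.58.

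miR-669c-5p comes from a hairpin inside Sfmbt2 and had 64, 13 and 49 counts in the sham libraries and 141, 19 and 93 in the Acu/LFES libraries. The normalised values were 92.3, 30.3 and 162 CPM in the sham libraries and 84.4, 39.5 and 84.9 CPM in the Acu/LFES libraries. Again the sham libraries held both ends of the range. Its log2 fold change was -0.43 with a standard error of 0.70 (adjusted p = 0.902, edgeR's quasi-likelihood test), with a 95% interval from -1.99 to 1.14, and it turned to 0.30 when libraries were scaled by their total counts and to 0.20 without sham mouse 3.

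The balance between these 2 members varied more within the sham group than between the groups. miR-466i-5p was 54.3%, 83.7% and 22.2% of the group's counts in sham mice 1, 2 and 3, and 66.6%, 74.2% and 62.0% in Acu/LFES mice 4, 5 and 6. miR-669c-5p was 24.8%, 4.42% and 60.5% in the sham libraries and 15.3%, 9.79% and 18.5% in the Acu/LFES libraries. Both are shares of the same total, so a higher share of one leaves less for the other. In sham mouse 2 the reads were mostly miR-466i-5p, and in sham mouse 3 mostly miR-669c-5p. The log2 ratio of miR-466i-5p to miR-669c-5p needs no library scaling. It was 1.31 ± 2.85 in sham libraries and 2.26 ± 0.60 in Acu/LFES libraries (SD, n = 3 each; two-sided exact permutation test, p = 0.7).

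miR-669a-5p and miR-669p-5p, whose hairpins have up to 69 bases in common without a break, were listed with identical counts and were the third most counted. They had 25, 0 and 0 counts in the sham libraries and 44, 4 and 52 in the Acu/LFES libraries. Reads were thus present in every Acu/LFES mouse and in 1 sham mouse, whose 36.0 CPM lay between the lowest (8.32 CPM, mouse 5) and the highest (47.5 CPM, mouse 6) Acu/LFES value. The log2 fold change was 1.08 with a standard error of 1.37 (adjusted p = 0.835, edgeR's quasi-likelihood test), with a 95% interval from -1.99 to 4.14. It was 0.41 without Acu/LFES mouse 6, and the fitted value of 7.48 without sham mouse 1 rests on remaining sham libraries that were both at 0 and is no measure of size.

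These 3 distinct members were the ones with enough counts for the test, and 0 of them had an adjusted or an unadjusted p under 0.05. Over all 259 miRNAs tested, 0 had an adjusted p under 0.05 (0%), and 23 had an unadjusted p under 0.05 (8.88%), 15 higher (5.79%) and 8 lower (3.09%) with Acu/LFES. DESeq2's Wald test called 8 miRNAs at an adjusted p under 0.05, none of them a member. The median log2 fold change was 0.05 over all miRNAs tested and 0.18 over the 3 members.

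The members were also summed before the test, since their reads can be shared. The summed group was at 370, 682 and 275 CPM in the sham libraries and at 547, 401 and 457 CPM in the Acu/LFES libraries, and again the Acu/LFES libraries lay between the lowest and the highest sham mouse. Its log2 fold change was 0.08 with a standard error of 0.36 (adjusted p = 0.960, edgeR's quasi-likelihood test). The 95% interval went from 0.606-fold to 1.85-fold. It holds for the TMM factors used and includes no error of the scaling itself. The sum of miR-466 members had a log2 fold change of 0.18 with a standard error of 0.59 (adjusted p = 0.964) and that of miR-669 members of -0.19 with a standard error of 0.56 (adjusted p = 0.964, same edgeR test), which turned to 0.57 when libraries were scaled by their total counts. The sums of miR-297 and miR-467 had too few counts to be tested. When libraries were scaled by their total counts, the log2 fold change of the group was 0.82 and that of all miRNAs tested 0.71 in the median, so that the group remained close to the other miRNAs. Without sham mouse 2 the log2 fold change of the miR-466 sum was 1.22 and that of miR-466i-5p 1.25, and neither had an adjusted p under 0.05.

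**Figure D3:**
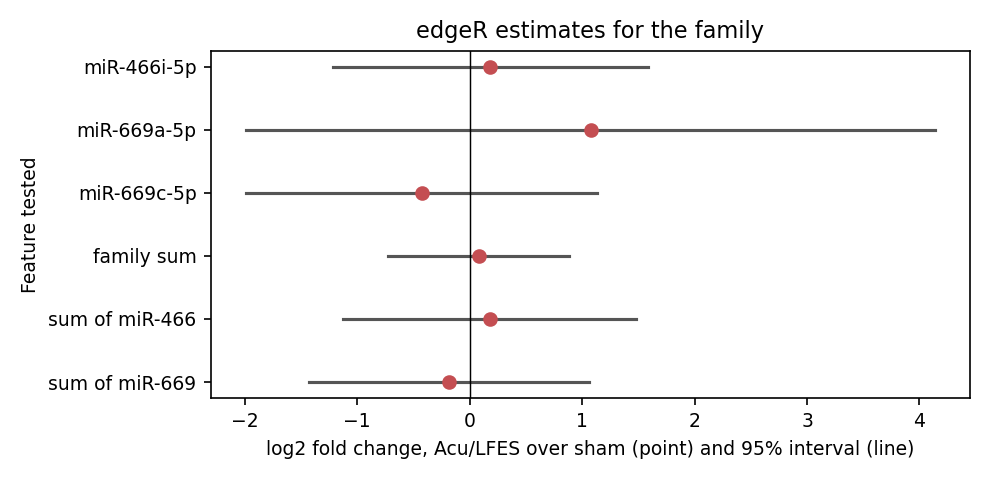
Log2 fold change of Acu/LFES over sham (red points) with its 95% interval (grey lines) from edgeR's quasi-likelihood test, for the 3 distinct members with enough counts and for 3 sums. All 6 intervals include 0, and the shortest, that of the family sum, goes from -0.72 to 0.89.

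The remaining 4 members with at least 20 counts did not pass the filter on low counts. Of these, miR-669h-3p and miR-467c-5p reached 20 counts only through the Acu/LFES libraries. Their comparisons between groups are therefore not independent tests. miR-669h-3p, whose hairpin is the last of the Sfmbt2 cluster, had 1, 3 and 0 counts in the sham libraries and 12, 4 and 10 in the Acu/LFES libraries. This was 1.44, 6.998 and 0 CPM against 7.18, 8.32 and 9.13 CPM after scaling, so that every Acu/LFES mouse was above every sham mouse, by a small margin, since sham mouse 2 was at the detection limit of 3 counts. As a share of the group's counts it was 0.469% ± 0.515 in sham libraries and 1.79% ± 0.417 in Acu/LFES libraries (SD, n = 3 each; exact permutation test, two-sided, p = 0.1, the smallest possible). With no filter on low counts, edgeR's quasi-likelihood test gave miR-669h-3p a log2 fold change of 1.58 with an unadjusted p of 0.517. In the same test the unadjusted p of the other 3 was 0.138 or more. The lowest of these was that of miR-467c-5p, whose reads were all in mouse 4. Of the 27 distinct members, 2 (7.41%) had no overlap with higher values in Acu/LFES mice, and the second, miR-466h-3p, was named after its values were seen and had 0 counts in each sham mouse and 1, 1 and 7 in the Acu/LFES libraries. Over all 631 distinct rows with reads this pattern was found in 9.51%.

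miR-466f, listed with the same counts as miR-466f-5p, was at 3, 2 and 7 counts in the sham libraries and at 9, 6 and 1 in the Acu/LFES libraries, and it was the one other member with reads in every library. miR-467e-5p had 13 counts in sham mouse 1, 10 in Acu/LFES mouse 4 and 0 in the other 4 mice. miR-467c-5p had 22 counts in Acu/LFES mouse 4 and 0 in all others. The miR-467 reads thus came mostly from the library of mouse 4, the deepest, which had 38 of the 59 counts. miR-297 had 5 counts in that library, 1 in mouse 6 and 0 in the sham libraries.

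More members were detected in Acu/LFES mice than in sham mice, as was the case for the distinct rows of the whole table. At least 1 read was found on 11, 11 and 5 distinct members in sham mice 1, 2 and 3 and on 21, 11 and 14 in Acu/LFES mice 4, 5 and 6. The fewest were in the smallest library and the most in the largest, but the numbers did not follow depth throughout. Mouse 6, with 517421 counts, had more members than mice 1, 2 and 5, whose libraries were larger. The mean was 9 ± 3.46 in sham libraries and 15.3 ± 5.13 in Acu/LFES libraries (SD, n = 3 each; two-sided exact permutation test, p = 0.3). At a limit of 3 counts the numbers were 7, 6 and 5 against 17, 7 and 9 (exact permutation test, p = 0.2).

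The number expected at a common depth was therefore computed for each library by the exact formula for sampling without replacement. At 391708 counts it was 9.40, 9.32 and 5 distinct members in the sham libraries and 16.4, 9.62 and 13.0 in the Acu/LFES libraries. The groups did not overlap, but sham mouse 1 and Acu/LFES mouse 5 differed by less than 1 member (two-sided exact permutation test, p = 0.1). At a common 112980 counts outside the miR-486a-5p and miR-486b-5p rows the numbers were 8.57, 9.66 and 5 against 14.95, 9.86 and 10.04 (exact permutation test, p = 0.1). The distinct rows of the whole table did the same. At the same 391708 counts, 388.7, 324.2 and 324 of them were expected in the sham libraries and 466.98, 404.8 and 448.2 in the Acu/LFES libraries (exact permutation test, p = 0.1).

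**Figure D4:**
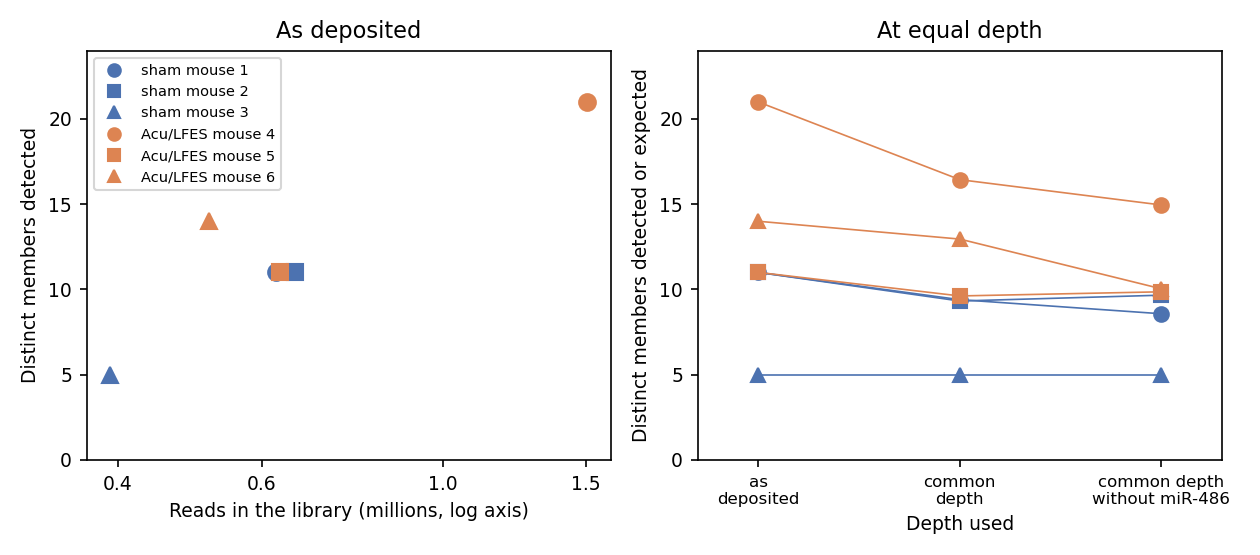
Distinct members with at least 1 read against the reads of the library (left, log axis), and the same numbers as deposited, at a common depth of 391708 reads and at 112980 reads outside miR-486a/b-5p (right), with 1 symbol for each mouse. Sham mice (blue) had 5 to 11 members and Acu/LFES mice (orange) 11 to 21 as deposited, and at a common depth sham mice 1 and 2 and Acu/LFES mouse 5 lay between 9.32 and 9.62.

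By group, 12 distinct members had reads in both, 13 of 27 (48.1%) in Acu/LFES mice alone and 2 of 27 (7.41%) in sham mice alone. Over all 631 distinct rows with reads these shares were 20.4% and 5.07%. Unrelated rows with few reads and identical counts merged among the 631, while members were merged only with each other. The shares over all distinct rows in this paragraph are therefore not like for like with those of the members. Rows with few reads are more often missing from a group, and among the 230 distinct rows of the table with 1 to 19 counts 41.7% had reads in Acu/LFES mice alone, against 12 of the 20 members (60%) with as few. The 13 members had 92 counts between them, at most 22 in a library, and 1 of them, miR-466h-3p, had reads in all 3 Acu/LFES mice. Mouse 4 alone gave 4 of the 13. Reads in mouse 5 or 6 and in no sham mouse were found for 9 of the 27 (33.3%), against 17.4% of the 631 distinct rows. Rows with reads in mouse 4 alone stayed in both totals. Reads in Acu/LFES mice alone were found for 15 of 52 distinct members (28.8%) of the Dlk1-Dio3 cluster, another large imprinted cluster, and for 71 of 236 distinct miRNAs (30.1%) numbered 1000 and above. Library depth and the share of miR-486a-5p and miR-486b-5p also differed between these libraries, and their part in these numbers beyond the common-depth values was not tested.

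The next members were named after their values were seen. miR-466g had 13 counts in sham mouse 2 and 0 elsewhere, and was among the 2 members found in sham mice alone. miR-467d-5p, with 5 and 8 counts, and the 3p arm shared by miR-466a, miR-466b, miR-466c, miR-466e and miR-466p, with 8 and 5, were in Acu/LFES mice 4 and 6 and in no other mouse. The shared 3p arm was at 4.79 and 4.56 CPM in mice 4 and 6, and 3 counts in the other 4 libraries stood for 4.32 to 9.91 CPM after scaling.

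Although the group is named for Sfmbt2, most of its reads were on names whose hairpins lie elsewhere. Names with every hairpin in Sfmbt2 (66 rows, 18 distinct members with reads) had 693 counts, or 30.8%. Names with every hairpin outside Sfmbt2 (9 rows, 6 distinct members with reads) had 1506 counts, or 67.0%, nearly all on miR-466i-5p. Names with hairpins in both places had 1.65%, and the 3p arm shared by miR-466a, miR-466b, miR-466c, miR-466e and miR-466p had 0.578%. That row was kept apart because no annotated hairpin has the name of miR-466a, listed first, although the other 4 names lie in Sfmbt2. Hairpins were matched to rows by name only. The hairpins Mir466, in Sfmbt2, and Mir297-1, on chromosome 7, have no letter in their names and were matched to no row. Names outside Sfmbt2 had 55.8%, 84.4% and 27.2% of the group's counts in the sham libraries and 68.4%, 74.7% and 63.2% in the Acu/LFES libraries. Sham mouse 3 was the only library in which the Sfmbt2 names had the larger part, with 64.2%. The names inside Sfmbt2 summed to 111, 44 and 52 counts in the sham libraries and to 273, 34 and 179 in the Acu/LFES libraries.

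**Figure D5:**
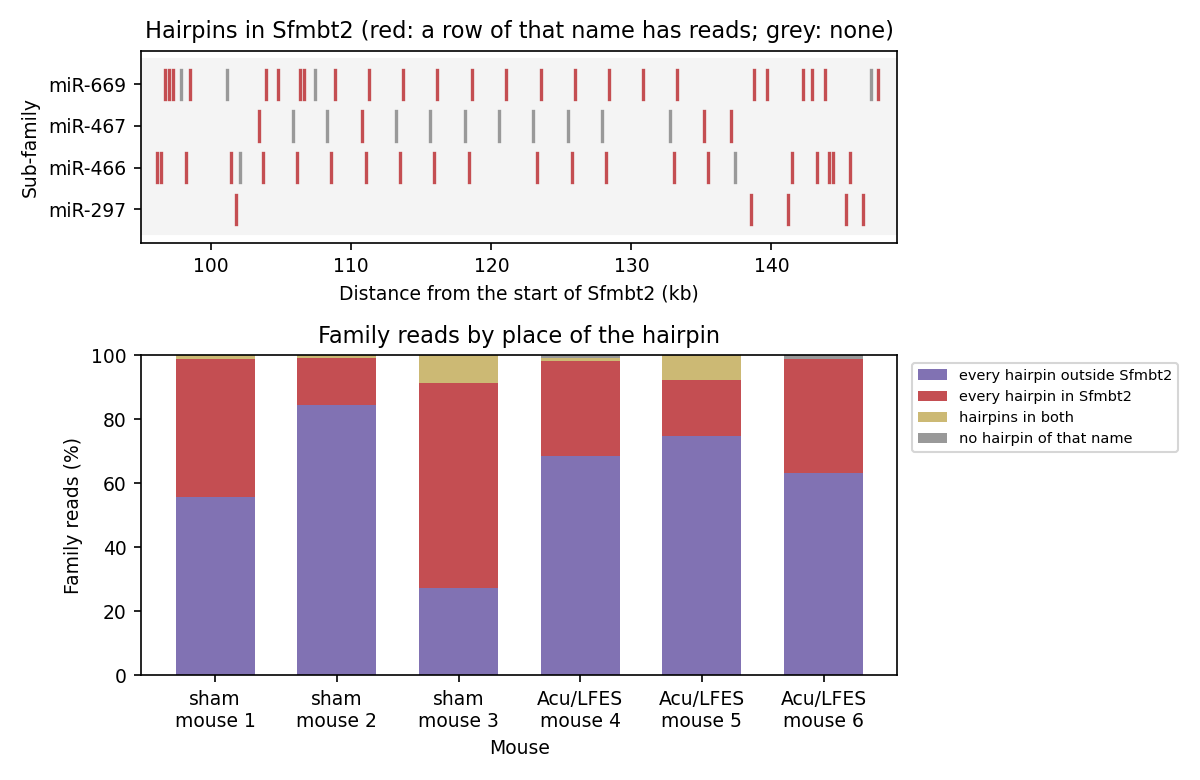
Top, the 71 hairpins in Sfmbt2 by their distance in kb from the start of the gene, 1 row for each of the 4 sub-families, in red where a row of that name had reads and in grey where none had. Mir466 is in grey because its name, without a letter, matches no row. Bottom, percent of the group's reads in each mouse by where the hairpins of the counted name lie, with names outside Sfmbt2 (purple) at 27.2% in sham mouse 3 and at 55.8% or more in the other 5 mice.

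Of the rows with the same counts in every mouse, some had hairpins that share long stretches and others did not. In all, 28 of the 47 rows with reads shared their counts with another row of the group. Where such a row had 13 counts or more, as for miR-669a-5p and miR-669p-5p or miR-466m-5p and miR-669m-5p, the annotated hairpins had 35 to 84 bases in common without a break. Where it had 1 or 2 counts, the longest shared stretch went from 8 to 62 bases, so that equal counts on the least alike of these rows need not come from the same reads.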

How the data were processed

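Small RNA from serum exosomes of 3 sham and 3 Acu/LFES mice was sequenced, and groups were taken from the sample labels. The authors deposited raw read counts on mature miRNAs, as whole numbers in 1 column for each mouse. The submitters' processing notes name bcl2fastq 1, cutadapt 1.6 and DESeq2 1.26.0. Aligner, counter, mismatches allowed and annotation are not given in the sources used here. A read that fits several names may enter the totals more than once. For values over all distinct rows of the table, rows with identical counts were taken once whatever their name.

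Members and lists were chosen with earlier results of these data known. Members named with values passed edgeR's filter or had at least 20 counts, and others are said to be named after their values were seen where singled out. The quasi-likelihood test of edgeR 4.0.16 (R 4.3.3) with TMM factors was run on the 259 of 954 miRNAs with a count that its default filter kept, with p adjusted by the Benjamini-Hochberg method over all features tested, a threshold of 0.05, and the standard error taken from the F statistic. Two-sided exact permutation tests (scipy 1.17.1) compared shares and numbers of members. The script was tested on simulated data. Alternatives were other scalings, DESeq2 1.42.0, other filters, other member sets and each mouse left out. Another 3 were chosen after seeing the data. Hairpins are from GENCODE M21 on GRCm38, and 8 mature sequences from RefSeq. The libraries held from 391708 to 1504137 counts. No pair of libraries of the same group agreed within sampling noise. Plots were made in Python 3.11.15 using matplotlib 3.10.9. The hairpin sequence of 1 member is not reported here.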

Additional observations from a re-analysis of the deposited data

Results flagged for a closer look

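Rows named for plant miRNAs, none of which is a member, held 0, 25 and 0 counts as deposited in sham mice 1, 2 and 3 and 44, 27 and 8 in Acu/LFES mice 4, 5 and 6. Rows with identical counts taken once, these were 0, 13 and 0 in the sham libraries and 14, 17 and 3 in the Acu/LFES libraries, so that mice 4 and 5 were above the highest sham mouse. Of the 63 plant rows, 24 had a count, and the highest count of a row in a library was 13. These rows are part of the shares given for all 631 distinct rows, of which 629 remain for the mouse rows alone. What these reads are was not tested.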

How the results depend on the processing

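No paired analysis was possible because the mouse numbers 1 to 6 are not shared between the groups. When libraries were scaled by total counts, the log2 fold change turned to 0.57 for the sum of miR-669 members and to 0.30 for miR-669c-5p. With upper-quartile factors the median of all miRNAs tested was -0.0090. The sum of the group turned to -0.096 without miR-466i-5p and to -0.14 with only members whose hairpins all lie in Sfmbt2, both chosen after seeing the data. DESeq2 called 8 miRNAs at an adjusted p under 0.05 and no member, and gave no adjusted p for miR-669a-5p. The number of miRNAs at an unadjusted p under 0.05 was 53 with no filter, where miR-466g was the 1 member among them (13 counts in sham mouse 2), and 40 with at least 10 counts over the libraries. With all member rows as deposited, Acu/LFES mice had 12.3 more members detected than sham mice, against 6.33.

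Leaving out each mouse in turn, the log2 fold change went from -0.12 (without sham mouse 3) to 0.57 (without sham mouse 2) for the sum of the group, and was -0.023 without Acu/LFES mouse 4. It went from -0.20 to 1.22 for the miR-466 sum, from -0.49 to 0.15 for the miR-669 sum, from -0.22 to 1.25 for miR-466i-5p, from 0.41 to 7.48 for miR-669a-5p and from -0.85 to 0.20 for miR-669c-5p. The miR-669 sum was 0.15 without sham mouse 3 and 0.14 without Acu/LFES mouse 5. Between 19 and 48 miRNAs had an unadjusted p under 0.05 (48 without sham mouse 1), with 1 member without sham mouse 1 (miR-669a-5p, then with 0 counts in the remaining sham mice) and 1 without sham mouse 2 (miR-466i-5p). The adjusted p of every member stayed above 0.05 when a mouse was left out. The difference in the share of counts went from 0.0104 (without Acu/LFES mouse 6) to 0.0436 (without Acu/LFES mouse 5) percentage points, and was 0.00767 without miR-466i-5p in all mice, while that in members detected went from 3.5 to 8.5. The cause of these changes was not tested.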
